A study of Rattus norvegicus with 8 samples.

Results

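The miR-199a and miR-214 microRNAs (miRNAs) of the rat kidney were followed through aristolochic acid (AA) treatment. The members were the rows of the deposited count table named miR-199a or miR-214, in any arm form, and 4 of the 620 listed miRNAs fitted this rule. They were rno-miR-199a-5p, rno-miR-199a-3p, rno-miR-214 and rno-miR-214*, called without the rat prefix rno from here on, where the star is the older mark for the less abundant arm of a hairpin. All 8 animals were male Big Blue Transgenic rats of the Fisher 344 strain, 6 weeks old at the start and listed as 18 weeks of age. The 4 AA-treated rats received AA, the nephrotoxic and carcinogenic compound of Aristolochia plants, in the form of the sodium salt, by gavage 5 times a week, with 10.0 mg/kg in 4 ml/kg at each dose. The 4 control rats were given 0.9% sodium chloride at the same times. The common protocol gives a duration of 12 weeks, whereas the descriptions of the single samples give a duration that grows with the rat number in both groups, namely 12, 13, 14 and 15 weeks in rats 1 to 4. Each library was made from the small RNA of kidney tissue with all its cell types, so that fewer cells of a type and less RNA per cell cannot be told apart. The total miRNA counts of a library were 13736874 to 15525397 for control and 13412373 to 15616670 for AA-treated rats.

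miRNAs are cut from hairpin transcripts and guide the repression of mRNAs, which they recognise mainly through the seed, the stretch at bases 2 to 8. miR-199a and miR-214 are cut from a shared long non-coding RNA, Dnm3os, which is transcribed against the direction of the dynamin gene Dnm3 and is switched on by the mesenchymal factor Twist1. They are known from mesenchyme, fibroblasts and pericytes rather than from tubular epithelium, and both have been tied to fibrosis of kidney and other organs. No fibroblast gene can be read from a table of miRNAs, so the tie of the cluster to fibroblasts is background here and was not checked in these libraries.

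The mature sequences are shown to set the seeds of the members apart, since the seed decides which mRNAs a miRNA can bind. All 4 members were matched by name in RefSeq on the GRCr8 assembly, where miR-214 is called miR-214-3p and miR-214* is called miR-214-5p. The sequences run 5′ to 3′ and the capitals mark the seed.
miR-199a-5p: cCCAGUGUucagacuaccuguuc
miR-199a-3p: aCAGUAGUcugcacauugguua
miR-214: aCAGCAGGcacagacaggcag
miR-214*: aGAGUUGUcaugugucu
The 4 seeds differed from each other, and none of them occurred in another mature rat miRNA of the RefSeq list. A rat miRNA absent from that list, even one counted in these libraries, would not have been found. The seeds are therefore not shown to be unique among rat miRNAs. RefSeq puts miR-199a-5p at chr13:77116255-77116277, miR-199a-3p at chr13:77116294-77116315 and miR-214 at chr13:77121713-77121733 of GRCr8, all on the plus strand. The Mir199a2 and Mir214 hairpins lie 5310 bases apart within the span of Dnm3, which is on the minus strand. In other mammals another hairpin, in the gene Dnm2, gives the same mature miR-199a sequences, so the counts of miR-199a cannot be assigned to this locus alone.

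The hairpin of miR-214 is shown because its listed products miR-214 and miR-214* were counted so unequally. In the 108 bases of chr13:77121645-77121752 the capitals mark miR-214* at bases 12 to 28 and miR-214 at bases 69 to 89.
Mir214 hairpin: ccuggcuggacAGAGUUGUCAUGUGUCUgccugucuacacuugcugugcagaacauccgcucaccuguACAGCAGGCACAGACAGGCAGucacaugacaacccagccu
miR-214* is listed there with 17 bases, and the libraries were cut from a gel at 22 to 30 nt. Whether the deposited count of miR-214* used this same entry, and what part its length played in the count, was not tested. On the opposite strand of the hairpin lies miR-3120, whose listed sequence is complementary to bases 28 to 48. In the printed sequence the bases complementary to most of miR-214 lie in this stretch rather than in miR-214*. The count of the listed miR-214* therefore does not measure the strand facing miR-214.

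After AA treatment the levels of miR-199a-3p, miR-199a-5p and miR-214 had higher means than in the control rats, by 1.35-fold to 1.66-fold. None of the 3 passed the threshold across all miRNAs in the fit reported here, which left out the rat number. With the rat number as a block, both arms of miR-199a passed it. Some other settings without a block also called miR-199a-3p alone or both arms, as given further on. A miRNA was called differentially expressed at an adjusted p under 0.05 with a ratio of group means over 1.5, and 36 of the 620 miRNAs (5.81%) were called higher in the AA-treated rats. Levels are normalized counts, which are the read counts divided by a size factor of each library. Without adjustment, both arms of miR-199a had a p under 0.05, as did 86 of the 620 miRNAs (13.9%) with a positive fold change. The fold changes of miR-199a-5p, miR-199a-3p and miR-214 ranked 38, 42 and 64 among the 305 miRNAs with at least 10 counts in every rat.

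miR-199a-3p, which is known to repress the growth regulator mTOR and the receptor Met, was the most abundant member. Its normalized counts were 4727, 5232, 4987 and 4375 in control rats 1 to 4 and 5453, 7468, 8440 and 7890 in AA-treated rats 1 to 4. Every AA-treated rat lay above every control rat, although AA-treated rat 1 exceeded the highest control rat by little. Such a separation with the AA-treated rats higher was found for 60 of the 620 miRNAs (9.68%). The means were 4830 ± 367 for control and 7313 ± 1302 for AA-treated rats (SD, n = 4 per group), a ratio of 1.51. An exact two-sided permutation test gave p = 0.0286, which is the lowest value possible with 4 rats per group. The log2 fold change was 0.60 with a standard error of 0.19, and its adjusted p of 0.067 from edgeR's quasi-likelihood test missed the threshold. The control rats differed little from each other, with a coefficient of variation of 7.59% that only 18 of the 305 miRNAs undercut.

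miR-199a-5p, which comes from the opposite arm of that hairpin and is a known repressor of caveolin-1, varied far more between rats. It had 1574, 2133, 1870 and 3102 normalized counts in control rats 1 to 4 and 1999, 3869, 3371 and 5178 in AA-treated rats 1 to 4. The groups overlapped, since AA-treated rat 1 lay below control rats 2 and 4, while the other 3 AA-treated rats were above all control rats. The means were 2170 ± 662 and 3604 ± 1314 (SD, n = 4 per group), and the log2 fold change was 0.73, with a standard error of 0.29 and an adjusted p of 0.144 from edgeR. An exact permutation test of the log2 values gave a two-sided p of 0.0857. The ratio of the means, 1.66, was the highest of the 3, and the coefficients of variation of 30.5% in the control and 36.5% in the AA-treated rats were the highest as well.

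miR-214, the more abundant listed product of the other hairpin, was the least abundant of the 3. Its levels were 248, 353, 300 and 418 normalized counts in control rats 1 to 4 and 337, 418, 424 and 601 in AA-treated rats 1 to 4. The ranges of the groups overlapped, and AA-treated rat 1 was again the lowest of its group. The means of 329.6 ± 72.6 and 445 ± 111 (SD, n = 4 per group) gave a log2 fold change of 0.43 with a standard error of 0.25 (adjusted p = 0.322 from edgeR). The difference did not pass a test against the spread between rats (exact permutation test, two-sided, p = 0.143).

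miR-214* was close to undetected. No control rat had a count, and AA-treated rats 1, 3 and 4 had 1 count each while rat 2 had none. All of these are at or under the floor of 3 counts, so that no fold change is given, and a library with 0 counts allows a level of up to 3 counts. This limit covers counting error only, since PCR reads are not independent molecules. miR-3120 on the opposite strand had 4, 5, 6 and 6 counts in the control rats and 2, 3, 6 and 1 in the AA-treated rats, with a log2 fold change of -1.0, a standard error of 0.58 and an adjusted p of 0.322 from edgeR.

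**Figure D1:**
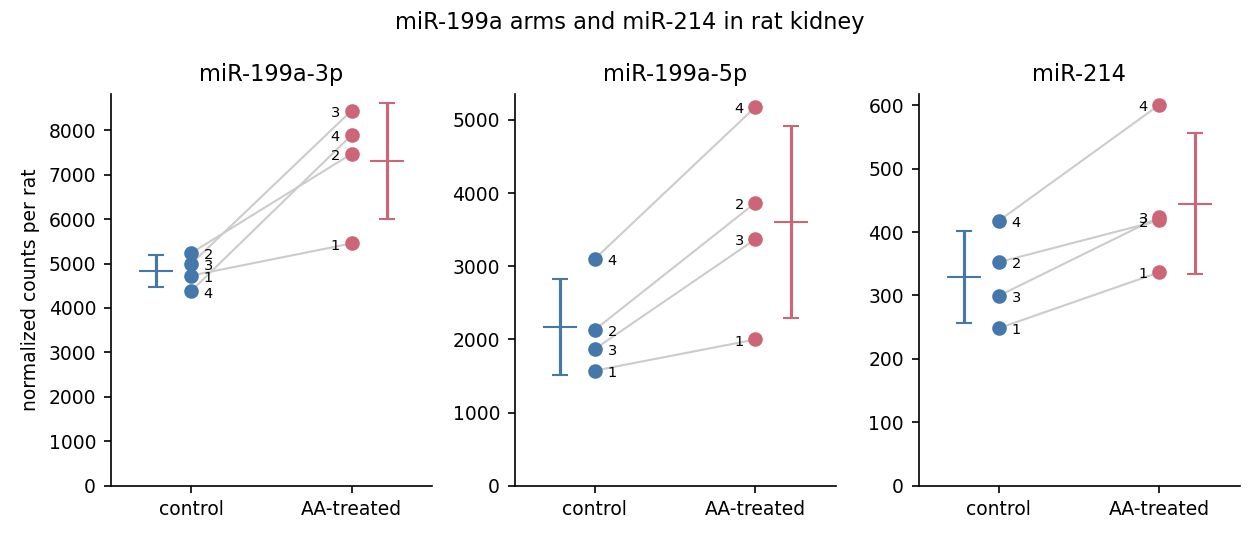
Normalized counts per rat of miR-199a-3p, miR-199a-5p and miR-214 in the 4 control and 4 AA-treated rats, with the rat number beside each point, grey lines between rats of the same number, and the mean and SD of each group as bars. All 4 lines rise in each panel, and the groups are separate for miR-199a-3p alone.

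The order of the members was the same in every library. miR-199a-3p took places 64 to 82 among the 620 miRNAs, miR-199a-5p places 79 to 110 and miR-214 places 148 to 185. A place compares different miRNAs, and how readily each joins to the adaptors was not measured.

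When rats with the same number were set side by side, the AA-treated rat was the higher in 4 of 4 comparisons for each of the 3 members. For miR-199a-3p any pairing of the rats gives this, as for all 60 of 620 miRNAs (9.68%) separated in this direction. The share of all miRNAs with 4 of 4 higher was not counted. miR-199a-3p was 1.15-fold, 1.43-fold, 1.69-fold and 1.80-fold higher for the numbers 1 to 4. miR-199a-5p was 1.27-fold, 1.81-fold, 1.80-fold and 1.67-fold higher, and miR-214 was 1.36-fold, 1.19-fold, 1.42-fold and 1.44-fold higher. The rats with a shared number are different animals, and the labels do not say that they were kept or processed together. With the replicate number as a block, both arms of miR-199a were called higher, among 45 of 620 miRNAs (7.26%) called higher in that fit. miR-199a-3p then had a log2 fold change of 0.58 with an adjusted p of 0.0436 from edgeR, and miR-199a-5p one of 0.70 with an adjusted p of 0.0198. miR-214 was not called with the block, with a log2 fold change of 0.43 and an adjusted p of 0.134 from edgeR.

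The arms of the miR-199a hairpin were compared within each library, where no size factor enters. The count of miR-199a-3p was 3.0, 2.45, 2.67 and 1.41 times that of miR-199a-5p in control rats 1 to 4, and 2.73, 1.93, 2.50 and 1.52 times in AA-treated rats 1 to 4. The 3p arm was thus the more abundant in all 8 rats. The rats numbered 4 had the lowest ratio of each group, and the other 6 rats lay between 1.93 and 3.0. The mean log2 ratio was 1.20 ± 0.48 under control and 1.08 ± 0.38 under AA treatment (SD, 4 rats per group). The difference of -0.12, with a standard error of 0.31, was smaller than the spread between rats (exact permutation test, two-sided, p = 0.771, adjusted p = 0.771 over 12 ratios).

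The log2 ratio of miR-214 to miR-199a-5p had the smallest SD over all 8 rats of the 3 ratios within the cluster, at 0.25, although within the AA-treated rats that of miR-214 to miR-199a-3p had the smaller SD, 0.26 against 0.28. It was 0.158, 0.165, 0.160 and 0.135 in control rats 1 to 4 and 0.168, 0.108, 0.126 and 0.116 in AA-treated rats 1 to 4. AA-treated rats 2 to 4 lay below all control rats, and AA-treated rat 1 above them. The log2 ratio differed by -0.27 with a standard error of 0.16 (exact permutation test, two-sided, p = 0.143, adjusted p = 0.214). The ratio of miR-214 to miR-199a-3p was 0.0526 to 0.0955 in the control and 0.0502 to 0.0762 in the AA-treated rats, highest in the rat numbered 4 of each group. Its log2 difference was -0.15 with a standard error of 0.22 (exact permutation test, two-sided, p = 0.543, adjusted p = 0.592).

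**Figure D2:**
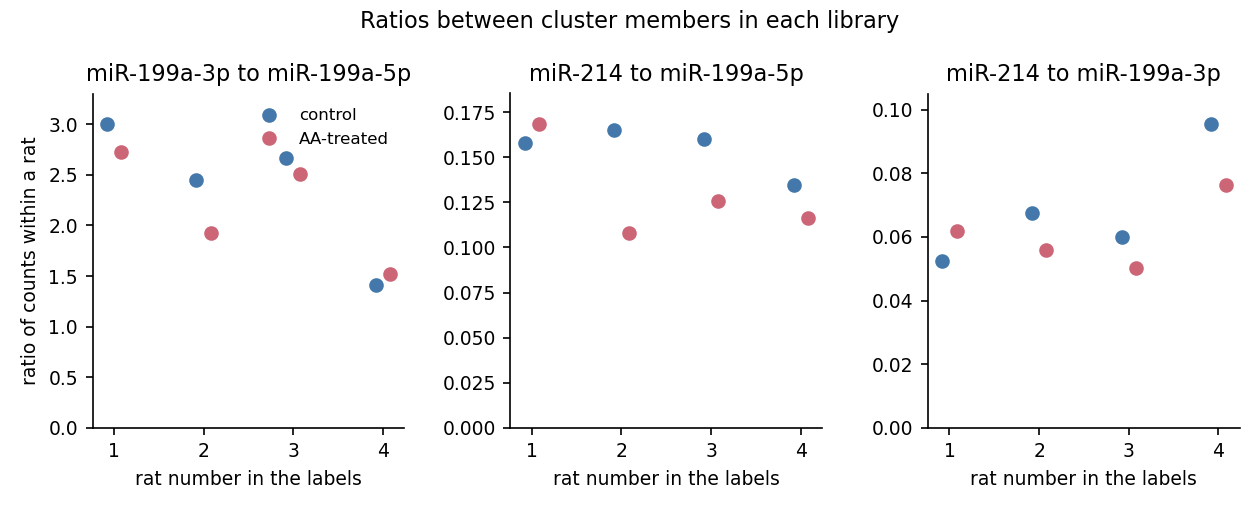
Ratio of the counts of cluster members within each rat against the rat number, for control and AA-treated rats, with each axis from 0. The ratio of the 3p to the 5p arm of miR-199a is lowest in both rats numbered 4, at 1.41 and 1.52.

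The members were next set against miRNAs of other roles in the same libraries. miR-21 is a widely induced miRNA of injured and fibrotic kidney, miR-145 is typical of smooth muscle and pericytes, and miR-126 is typical of endothelium. For each count of miR-21 there were 0.00879 to 0.0112 counts of miR-199a-3p under control and 0.00228 to 0.00834 under AA treatment, without overlap. The log2 ratio fell by 1.27 with a standard error of 0.41 (exact permutation test, two-sided, p = 0.0286, adjusted p = 0.171). The log2 ratio of miR-214 to miR-21 fell by 1.42 with a standard error of 0.40, and here too the groups were separate (two-sided exact permutation test, p = 0.0286, adjusted p = 0.171). For miR-199a-5p to miR-21 the difference was -1.15 with a standard error of 0.52 (exact permutation test, two-sided, p = 0.0571, adjusted p = 0.171). None of these passed the adjustment over the 12 ratios. AA-treated rat 1, the lowest of its group in all 3 members, had the lowest ratio to miR-21 for each of them.

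Against miR-145 and miR-126 the mean differences were all positive. The count of miR-199a-3p was 0.602, 0.548, 0.519 and 0.683 times that of miR-145 in control rats 1 to 4 and 0.648, 0.700, 0.819 and 0.837 times in AA-treated rats 1 to 4. Control rat 4 lay above AA-treated rat 1, and the other rats were separate by group. The log2 difference was 0.35 with a standard error of 0.12 (exact permutation test, two-sided, p = 0.0571, adjusted p = 0.171). For miR-199a-5p and miR-214 the log2 differences against miR-145 were 0.47 and 0.20, with standard errors of 0.40 and 0.30. Against miR-126 they were 0.95 for miR-199a-5p, 0.83 for miR-199a-3p and 0.68 for miR-214, with standard errors of 0.41, 0.34 and 0.29. The smallest adjusted p among these other 5 ratios was 0.196 (exact permutation test, two-sided).

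Lists of miRNAs tied to fibrosis or to single cell types were then read beside the cluster, with every arm whose name is spelled miR in the table. Another 10 rows of these hairpins are spelled mir, with 0 to 21 counts per rat, and were left out because the table does not say how they differ. With edgeR 0 of these 10 were called and 0 were at an unadjusted p under 0.05. Medians are of the log2 fold changes of the rows with over 3 counts in at least 1 rat, beside a median of 0.05 for all 498 such miRNAs and 0.60 for the 3 members of the cluster. Of the 12 rows of the list of miRNAs that promote kidney fibrosis, 3 were called higher and 1 lower, with a median of 0.52, where 9.03% of the 620 miRNAs were called in either direction. miR-21 rose 3.83-fold with an adjusted p of 2.76e-04 and its other arm miR-21* 3.0-fold, and miR-132, a miRNA of activated pericytes, rose 3.88-fold, while miR-382* fell. In the same list miR-192 and miR-192* had lower means, at 0.56-fold and 0.53-fold, and were not called (adjusted p = 0.168 and 0.200 from edgeR). At an unadjusted p under 0.05 by edgeR 6 of the 12 were higher and 3 lower, where 23.9% of all miRNAs passed in either direction. miR-150, which is also a lymphocyte miRNA, had 797 to 1010 normalized counts in the control and 1122 to 1447 in the AA-treated rats, with an adjusted p of 0.133 from edgeR. Of the 15 rows of fibrosis-limiting miRNAs, the miR-29 and miR-200 families, 0 were called and the median was -0.09. The edgeR test gave 0 of these 15 an unadjusted p under 0.05, which 23.9% of the 620 miRNAs had in either direction, and DESeq2 and limma-voom called 0 as well.

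The smooth muscle and pericyte list had 0 of 8 rows called and a median of -0.26, which is the value of its miR-1 row. The list also holds miR-133a and miR-133b, with log2 fold changes of -0.87 and -0.46. Those of miR-143* and miR-145* were 0.04 and 0.10. With edgeR 1 of the 8, miR-143, had an unadjusted p under 0.05, and DESeq2 and limma-voom called 0. miR-143 had a log2 fold change of -0.41 with an adjusted p of 0.200, and miR-145 one of 0.22 with an adjusted p of 0.496, both from edgeR. The endothelial list, miR-126 and miR-126*, had 0 of 2 rows called and a median of -0.42, with 0 at an unadjusted p under 0.05 by edgeR and 0 called by DESeq2 or limma-voom. In the red cell list 0 of 4 rows were called, DESeq2 and limma-voom called 0 as well, and the median was -0.71. By edgeR 2 of the 4 were lower at an unadjusted p under 0.05, which 23.9% of the 620 miRNAs had in either direction. With the replicate block miR-144* was called lower, among 29 of the 620 miRNAs called lower in that fit. The summed level of the red cell list was 11079 to 16985 normalized counts in the control and 3402 to 11440 in the AA-treated rats.

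Of the 8 rows of the leukocyte list 2 were called higher, miR-142-3p at 2.67-fold and miR-223 at 1.94-fold, beside 5.81% of all miRNAs, and the median was 0.74. By edgeR 5 of the 8 were higher and 0 lower at an unadjusted p under 0.05, where 13.9% of all miRNAs were higher at that p. With total counts 4 of the 8 were called higher, beside 9.35% of all miRNAs. The other arm, miR-142-5p, had a log2 fold change of 0.26 with an adjusted p of 0.632 from edgeR, and its groups overlapped. miR-146a had a log2 fold change of -0.14 and was not called. The summed level of the leukocyte list was 31944 to 42249 normalized counts in the control and 48791 to 77102 in the AA-treated rats, without overlap. Within this sum miR-142-3p rose from a mean of 14047 to 37532. The kidney epithelium list had 2 of 17 rows called lower, miR-194* and miR-204, beside 3.23% of all miRNAs, with a median of -0.43. At an unadjusted p under 0.05 by edgeR 5 of the 17 were lower. Of all 620 miRNAs 23.9% had such a p in either direction and 13.9% with a positive fold change. DESeq2, limma-voom and the replicate block each called 3 lower, with miR-194 as the added one. In these fits 30, 25 and 29 of the 620 miRNAs were called lower. With TMM size factors or total counts 0 of the 17 were called, where 16 and 11 of the 620 miRNAs were called lower. The summed level of the epithelium list was 2280054 to 3255262 in the control and 1649164 to 2370137 in the AA-treated rats. Most of this sum came from miR-30a and miR-192, which were not called. Their means were 1850153 and 567860 in the control and 1588732 and 316369 in the AA-treated rats. No row of the leukocyte or epithelium list was at or under 3 counts in all rats. The lists share some members, such as the miR-200 family between the fibrosis-limiting and epithelium lists and miR-150 between the fibrosis-promoting and leukocyte lists. Both miR-192 and miR-192* are in the fibrosis-promoting and the epithelium lists. The part of these shifts in the levels of the cluster was not tested. miR-155 and miR-486, which the lists also name, are not among the 620 listed miRNAs.

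**Figure D3:**
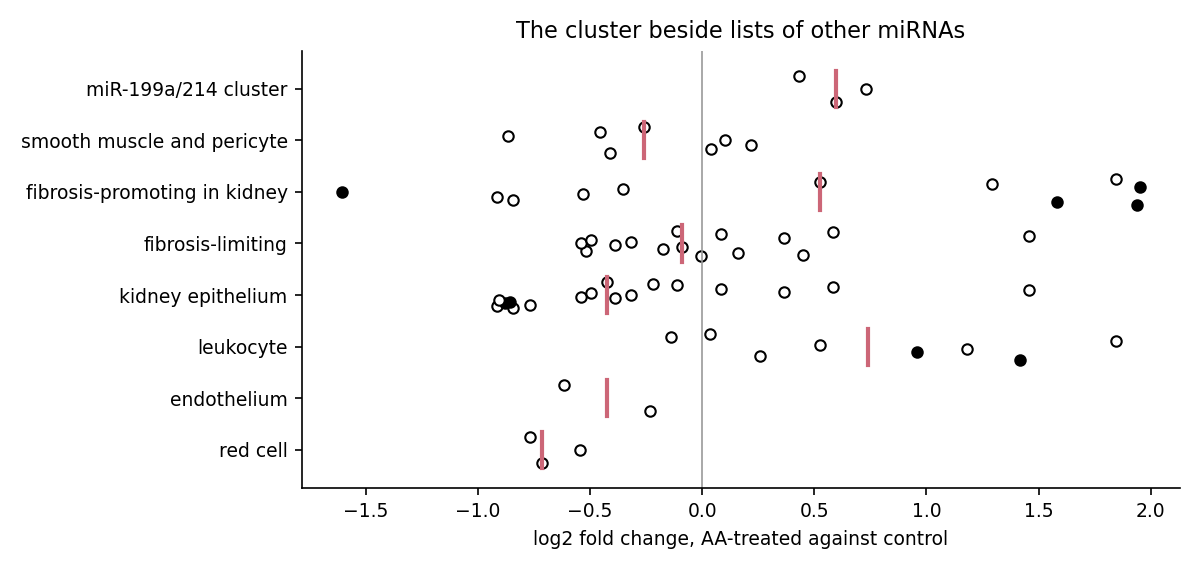
Log2 fold change, AA-treated against control, of the 3 counted cluster members and of the rows of each list with over 3 counts in at least 1 rat, where filled points passed both thresholds and red bars are medians. The cluster has 3 open points to the right of 0 and a median of 0.60. The smooth muscle and pericyte list, which also holds rows of miR-1, miR-133a and miR-133b, has a median of -0.26.

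The likeness of patterns was measured as the SD over the 8 rats of the log2 ratio of 2 miRNAs, which is 0 for miRNAs that keep an exact ratio. It was taken over the 305 miRNAs with at least 10 counts in every rat and is a description, since rats of a group share their treatment. For miR-199a-5p the closest of the other 304 miRNAs was miR-214, with an SD of 0.25 against a median of 0.72. miR-331, miR-191*, miR-350 and miR-23a followed, with SDs of 0.25 to 0.33. The closest to miR-214 were miR-331 at 0.14, miR-532-3p, let-7f-2*, miR-152* and miR-128, and miR-199a-5p came at place 12.

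miR-199a-3p kept to other company. Its closest miRNAs were miR-29a* with an SD of 0.13, miR-196a at 0.16, miR-24-2*, miR-505 and miR-652 at up to 0.23. miR-29a* had 254 to 287 normalized counts in the control and 297 to 411 in the AA-treated rats, without overlap and highest in AA-treated rat 4, and it was not called (adjusted p = 0.217 from edgeR). The other arm of its own hairpin, miR-199a-5p, came at place 76 of 304 with an SD of 0.41, and miR-214 at place 24 with an SD of 0.31. When the group means were removed first, miR-199a-5p fell to place 180 and miR-214 to place 78. None of the miRNAs named here as most similar was called.

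The call of both arms of miR-199a depended on the processing, whereas the direction was the same in all 17 other settings. miR-199a-3p was called in 6 and miR-199a-5p in 3 of these 17, and miR-214 in 0 of 17. miR-199a-3p was among the 9.35% of miRNAs called higher with total counts in place of size factors and the 6.94% called higher with DESeq2. With a filter of at least 10 counts in 4 rats or in every rat it was among 9.54% and 9.84% of the miRNAs left. The calls of miR-199a-5p came with total counts, with the replicate block and without AA-treated rat 1. Without AA-treated rat 1, miR-199a-3p had a log2 fold change of 0.72 with an adjusted p of 0.0333 and miR-199a-5p one of 0.93 with an adjusted p of 0.036, both from edgeR, where 5.74% of miRNAs were called higher. Over all 17 settings the adjusted p ranged from 0.0147 to 0.169 for miR-199a-3p, from 0.0198 to 0.307 for miR-199a-5p and from 0.112 to 0.557 for miR-214. The lowest estimates were 0.51 for miR-199a-3p without AA-treated rat 3, and 0.51 for miR-199a-5p and 0.26 for miR-214 without AA-treated rat 4.

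**Figure D4:**
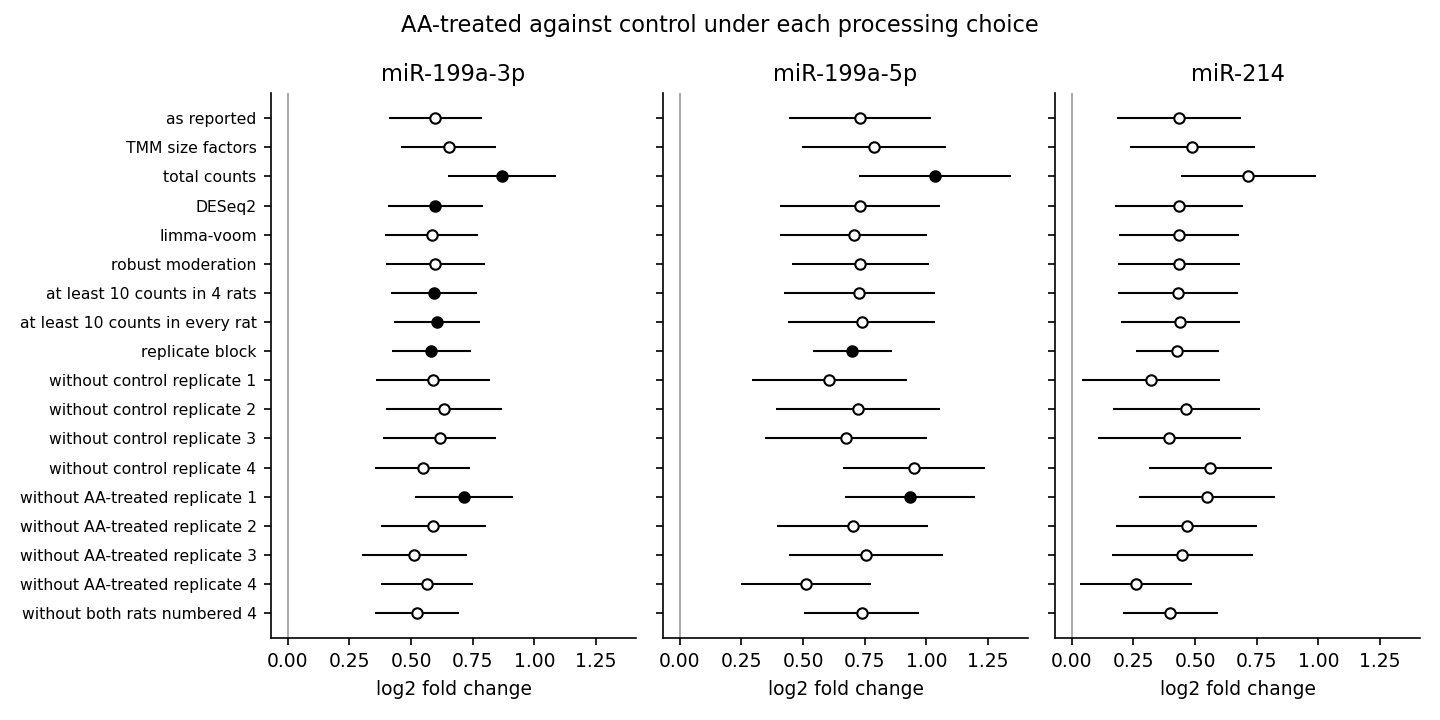
Log2 fold change with its standard error of the 3 members under each processing choice, where filled points passed an adjusted p under 0.05 with a ratio over 1.5. All points lie to the right of 0, and those of miR-214 are open throughout.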

How the data were processed

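The study sequenced the small RNA of 1 kidney library from each of 4 control and 4 AA-treated rats. The values the authors deposited are read counts per mature miRNA, made by removing adaptors and contaminated reads and assigning grouped reads to rat miRNAs of miRBase 16 with the miRanalyzer webserver at default settings, without normalization or pooling. CASAVA 1.7 is named in the submitters' processing notes, and no genome build is given in the sources used here. How reads matching several miRNAs were counted is not stated either.

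Counts were scaled by median-of-ratios size factors. The fit took in all 620 miRNAs, without covariates, by edgeR 4.0.16 (quasi-likelihood F-test, R 4.3.3), and its p-values were adjusted by Benjamini-Hochberg over all of them. Every adjusted p of a fold change comes from it unless another tool is named. Exact permutation tests used log2 values and the 70 labelings of the rats. Ratios within a rat are of raw counts. These and the figures were made in Python 3.11.15 with pandas 2.3.3, scipy 1.17.1 and matplotlib 3.10.9. The fit was tested on simulated data with larger changes than those of the members, so this test does not cover changes of their size.

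No library repeated another: the lowest chi-square per degree of freedom between counts of 2 rats in 1 group was 394. The same-numbered rats of the groups deviated together over the 305 miRNAs with at least 10 counts in every rat, with correlations of 0.215 to 0.513. The mean over pairs of different numbers was -0.11. However, control rat 3 with AA-treated rat 2 had 0.298, above the 0.215 of control rat 3 with AA-treated rat 3. Over the 370 miRNAs with a mean of at least 10 counts the lowest was -0.0017, so that the pairing rests on the set of miRNAs used. DESeq2 1.42.0, limma 3.58.1, other normalizations, filters, a block and left-out rats were the alternatives.

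The members and lists were chosen with earlier results of these data known. The miRNAs named are the members, miR-3120, those of the lists and the 5 most similar to each member. The mRNA and protein data of the study were not analysed here.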

Additional observations from a re-analysis of the deposited data

Results flagged for a closer look

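A rat far from the other 3 of its group was looked for in 44 groups of values, namely the members, their ratios and the summed lists, and 3 were found, where chance gives about 1 in 20. All 3 concern the rats numbered 4 and share miR-145 as the denominator, so they are not independent of each other. The ratio of miR-199a-5p to miR-145 was 0.484 in control rat 4 and 0.194 to 0.223 in the other control rats. The ratio of miR-214 to miR-145 was 0.0652 in control rat 4 against 0.0312 to 0.0369 in the other control rats. In AA-treated rat 4 the same ratio was 0.0637, while AA-treated rats 1 to 3 had 0.0392 to 0.0412. The cause was not tested.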

How the results depend on the processing

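The log2 fold change was positive for miR-199a-3p, miR-199a-5p and miR-214 in each of 17 other settings, with adjusted p of 0.0147 to 0.169, 0.0198 to 0.307 and 0.112 to 0.557. miR-199a-3p, not called as reported, was called with total counts (log2 fold change 0.87), DESeq2 (0.60), a filter of 10 counts in 4 rats (0.59) or in every rat (0.60), the replicate block (0.58) and without AA-treated rat 1. miR-199a-5p was called with total counts (1.03), the replicate block (0.70) and without AA-treated rat 1. The filters test fewer miRNAs, and for the others the cause was not tested. Total counts raised the median over all miRNAs from 0.05 to 0.31 on the log2 scale, and gave 58 miRNAs called higher and 11 lower in place of 36 and 20. A ratio over 2 in place of 1.5 left 42 called, 30 higher and 12 lower. When 1 rat at a time was left out, log2 fold changes were 0.51 to 0.72 for miR-199a-3p, 0.51 to 0.95 for miR-199a-5p and 0.26 to 0.56 for miR-214, and 40 to 62 miRNAs were called. With the replicate block 74 were called, against 56. For the ratios, differences of medians gave -1.35 for miR-199a-3p to miR-21 and -1.37 for miR-214 to miR-21, both with a p of 0.0571 in the exact permutation test. Adding 1 to both counts moved no p of a ratio across 0.05. The block allows a ratio no p below 0.125, and leaving out a rat none below 0.0571, so these say nothing about stability of the calls. No value could be had for miR-214* under the filters. With group means removed, 3 of the 5 most similar miRNAs of each member stayed the same. Low counts limit what can be said of miR-214* and miR-3120.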
